A study of Mus musculus with 12 samples.

Results

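Levels of RNA from tetraspanin genes were compared between tumours of 3 mouse lung adenocarcinoma lines, on 12 arrays with 4 for each line. The 10 genes Cd9, Cd63, Cd81, Cd82, Tspan1, Tspan6, Tspan8, Tspan12, Tspan13 and Tspan15 were selected from the tetraspanin family with earlier results of these data known. Of these, 9 could be followed among the 18193 genes tested, and Cd63 is not analysed here because no probe set in the annotation used carries it as its only symbol. For each gene the probe set was chosen by its highest mean over the 12 arrays, which draws no distinction between the lines. All levels are given as log2(intensity + 16), called the log2 level here, and levels of different genes are not compared because their probes differ. Because the genes were listed with the line differences in view, their number past the test is given as a description.

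All 3 lines came from p53R172H∆g/+ K-rasLA1/+ mice and were mass populations of cultured tumour cells. The line 393P was taken from a primary lung tumour and 393LN from a mediastinal lymph node of one mouse, whereas 344SQ came from a subcutaneous site of another mouse. The labels call 344SQ highly metastatic, 393LN intermediately metastatic and 393P non-metastatic. Tumours of these lines were grown in syngeneic mice, whose own cells add RNA to each sample. Each group is thus a single line, so its metastatic class, its site and, for 344SQ, its mouse of origin cannot be told apart. The ages and the number of host animals were not given in the sources used here, so p-values measure only the spread between these arrays, which may be partly technical. In such bulk tumour RNA, fewer cells of a type and less RNA per cell cannot be told apart.

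Tetraspanins are small membrane proteins that cross the membrane several times and carry a conserved large extracellular loop. They bind integrins, immunoglobulin superfamily proteins, proteases and one another, and gather them into membrane microdomains. In epithelia they take part in adhesion, in traffic through endosomes and in the release of exosomes, small vesicles on which Cd9, Cd63 and Cd81 are commonly used as markers.

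Among the 9 genes, Tspan12, Tspan15 and Tspan8 were higher in 344SQ than in both 393 lines, Tspan1 was lower than in both, and no gene passed the test between the 393 lines. RefSeq promoters, as 300 bases on GRCm38.p6 that hold 250 before and 50 after the annotated start, are shown for these 4 because they are the genes whose levels separated the lines. All 10 genes had at least 1 promoter in the RefSeq table and together they had 13. Capitals mark the letters of 3 motifs searched on both strands after the changes were known: the E-box CACCTG, which Zeb and Snail factors bind, the forkhead motif TGTTTAC and the Gata motif AGATAA.
Tspan12, chr6:21852484-21852783, minus strand: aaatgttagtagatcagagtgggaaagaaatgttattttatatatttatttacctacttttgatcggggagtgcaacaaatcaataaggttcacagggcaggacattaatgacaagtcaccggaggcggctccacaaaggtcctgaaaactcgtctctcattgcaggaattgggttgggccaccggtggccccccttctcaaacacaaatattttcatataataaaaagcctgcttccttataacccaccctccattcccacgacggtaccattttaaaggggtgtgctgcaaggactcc
Tspan15, chr10:62231169-62231468, minus strand: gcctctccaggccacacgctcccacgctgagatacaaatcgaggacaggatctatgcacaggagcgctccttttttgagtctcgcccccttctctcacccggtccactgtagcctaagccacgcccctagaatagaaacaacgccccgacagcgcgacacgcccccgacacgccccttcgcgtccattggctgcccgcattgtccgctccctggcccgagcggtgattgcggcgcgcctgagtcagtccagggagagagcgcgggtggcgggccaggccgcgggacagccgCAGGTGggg
Tspan8, chr10:115817034-115817333, plus strand: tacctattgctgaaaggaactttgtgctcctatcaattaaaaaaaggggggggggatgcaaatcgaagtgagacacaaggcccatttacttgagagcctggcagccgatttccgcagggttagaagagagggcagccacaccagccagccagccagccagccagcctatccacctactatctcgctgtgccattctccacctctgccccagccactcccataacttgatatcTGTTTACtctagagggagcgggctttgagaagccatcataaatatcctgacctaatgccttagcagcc
Tspan1, chr4:116167549-116167848, minus strand: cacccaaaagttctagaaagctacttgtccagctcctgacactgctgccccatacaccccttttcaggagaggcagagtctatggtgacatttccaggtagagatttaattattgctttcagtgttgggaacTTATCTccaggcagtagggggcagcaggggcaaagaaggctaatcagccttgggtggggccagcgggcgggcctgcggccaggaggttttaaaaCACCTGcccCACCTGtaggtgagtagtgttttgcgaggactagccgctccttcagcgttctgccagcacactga

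The Tspan1 window held the E-box at 2 places, 24 and 15 bases before the annotated start, and the reverse complement of the Gata motif 118 bases before it, counted to the first base of each match. None of these matches overlapped. In the Tspan8 window the forkhead motif lay 18 bases before the start, and in that of Tspan15 the reverse complement of the E-box lay 41 bases after it. The Tspan12 window held none of the 3. Among all 32851 promoters of the table, 20.2% held the E-box, 3.65% the forkhead motif and 11.2% the Gata motif. The E-box was also present in the Cd9 window and in a pair of the Cd82 windows, genes that did not pass the test in any comparison. A match is only a match of letters.

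**Figure D1:**
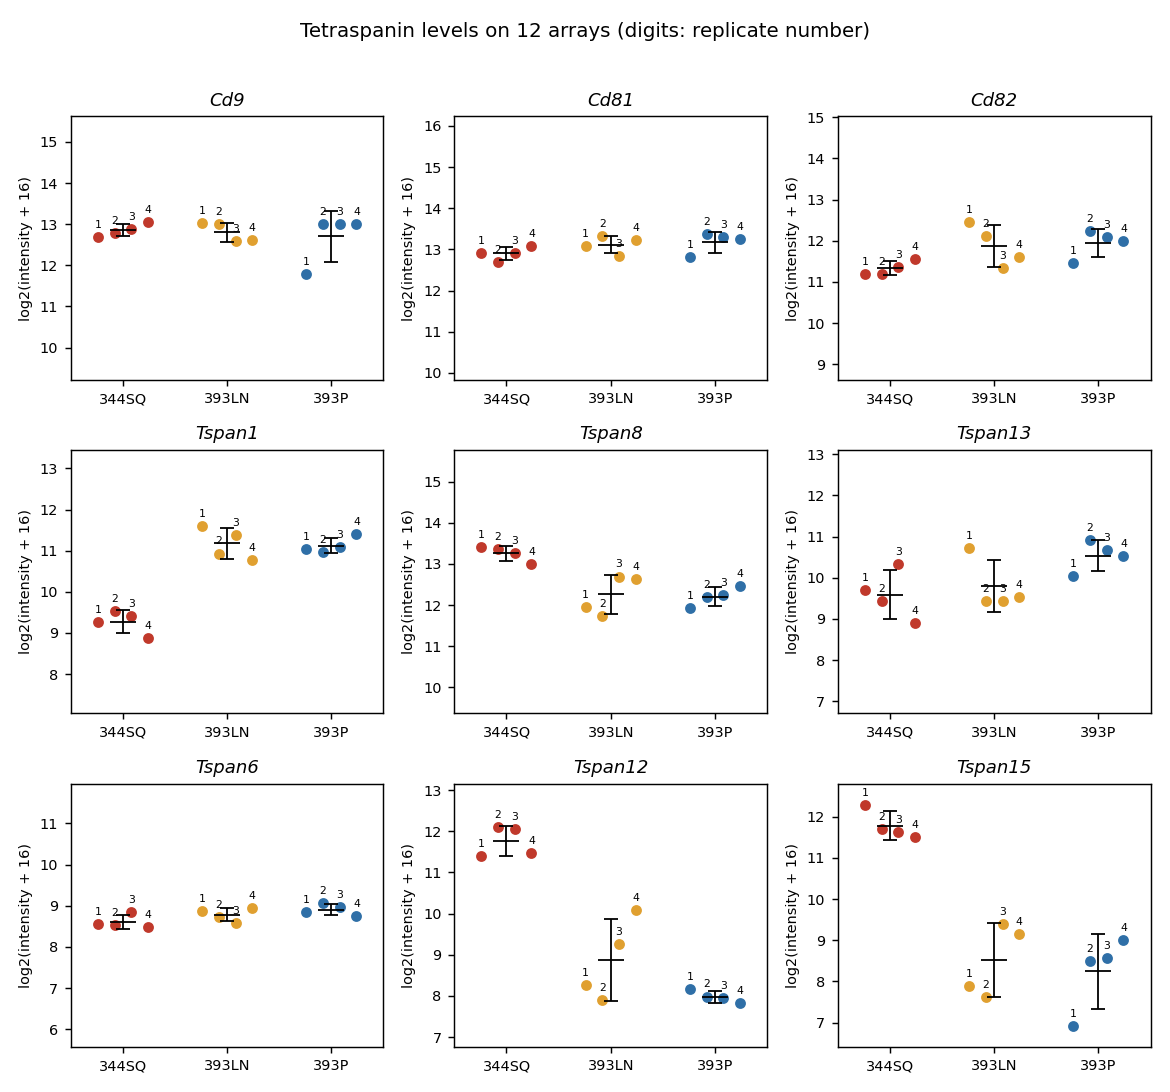
Level of 9 tetraspanin genes, as log2(intensity + 16), on each of 12 arrays grouped by line; points are arrays with their replicate number, and bars give the mean and SD of 4 arrays. All panels span the same number of log2 units. The 344SQ arrays lie above all others for Tspan12, Tspan15 and Tspan8 and below all others for Tspan1.

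Tspan12 and Tspan15 work beside a partner. Tspan12 joins the receptor Frizzled-4 and its co-receptor Lrp5 and raises their response to the ligand Norrin in retinal vessels. In the 344SQ tumours its log2 level was 11.41, 12.10, 12.05 and 11.47 on replicates 1 to 4. The 393LN arrays had 8.26, 7.89, 9.27 and 10.08, and the 393P arrays had 8.17, 7.98, 7.95 and 7.83. All 4 344SQ arrays stood above the other 8, the 393P arrays were tightly grouped, and replicates 1, 3 and 4 of 393LN were above every 393P array.

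Relative to 393P, Tspan12 rose in 344SQ by 3.77 ± 0.38 on the log2 scale (SE, n = 4 per line), a 13.7-fold difference (limma, adjusted p = 7.93e-05). Relative to 393LN it rose by 2.88 ± 0.38, or 7.36-fold (limma, adjusted p = 0.000693). The difference between 393LN and 393P was 0.89 ± 0.38 with a 95% interval of 0.06 to 1.73 and did not pass after adjustment over all genes (limma, adjusted p = 0.278). The line means were thus in the order 344SQ, 393LN and 393P, and the lower pair was not separated by the test. Tspan12 has 1 probe set here, whose name ends in _s_at, and by the array maker's naming such a set may match transcripts of more than one gene.

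Tspan15 belongs to the TspanC8 group of tetraspanins, which carry the protease Adam10 to the cell surface and steer which substrates it cuts. Its log2 level was 12.29, 11.71, 11.63 and 11.52 on the 344SQ arrays. The 393LN arrays gave 7.88, 7.63, 9.40 and 9.16, and the 393P arrays gave 6.92, 8.50, 8.56 and 9.02. The 344SQ values formed a group well above the rest, while those of the 393 lines overlapped and were widely scattered.

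The rise of Tspan15 in 344SQ was 3.54 ± 0.47 against 393P (11.6-fold; limma, adjusted p = 0.000591) and 3.27 ± 0.47 against 393LN (9.63-fold; limma, adjusted p = 0.0012). Without 393P replicate 1, the lowest array, the rise against 393P was 3.10. Between 393LN and 393P the change was 0.27 ± 0.47 (95% interval -0.76 to 1.30; limma, adjusted p = 0.855), so neither an equal level nor a 2-fold difference can be told from these arrays.

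Within the 393LN line, the values of Tspan12, Tspan15 and Tspan8 on replicates 3 and 4 all lay above those on replicates 1 and 2, a pattern noticed after the values were seen. Cd9 and Cd82 were split the other way. On replicates 3 and 4 Cd9 was at 12.58 and 12.62, against 13.02 and 12.99 on replicates 1 and 2. Cd82 was at 11.33 and 11.60 against 12.45 and 12.11. The remaining genes of the 9 were not split in this way. The mean log2 level of the 10 epithelial markers was 12.67 and 12.54 on replicates 3 and 4 against 12.93 and 12.97 on replicates 1 and 2. The mast cell list was at 7.21 and 7.53 on replicates 3 and 4 against 7.14 and 7.20, and the B and plasma cell list at 8.41 and 8.14 against 7.98 and 7.09. The neutrophil list was lower on replicates 3 and 4 (9.47 and 8.95 against 9.63 and 9.59), as was the T and NK cell list (7.86 and 8.05 against 8.07 and 8.33), and the other 4 lists were not ordered in this way. The part of tissue makeup in this scatter was not tested.

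Tspan8, Tspan1 and Tspan13 are tetraspanins of epithelia. Tspan8 is abundant in gut and gut-derived tumours, where it was found in a complex with Epcam, claudin-7 and Cd44. Its log2 level was 13.40, 13.37, 13.27 and 12.99 on the 344SQ arrays. The 393LN arrays had 11.96, 11.74, 12.69 and 12.64, and those of 393P had 11.94, 12.18, 12.23 and 12.47. The lowest 344SQ array lay above the highest of both other lines.

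Tspan8 rose in 344SQ by 1.05 ± 0.21 against 393P (2.07-fold; limma, adjusted p = 0.00774) and 2.00-fold against 393LN (95% interval of the log2 change 0.54 to 1.46; limma, adjusted p = 0.011). The 393 lines differed by 0.05 ± 0.21 (95% interval -0.41 to 0.51; limma, adjusted p = 0.951). The gene has 4 other probe sets, and each of them was also higher in 344SQ in both comparisons. Against 393P their changes ran from 0.65 to 1.81, with adjusted p over all probe sets between 0.00261 and 0.0446 (limma), and against 393LN from 0.91 to 1.53. The probe set that stands for the gene gave the smallest change but one in both.

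**Figure D2:**
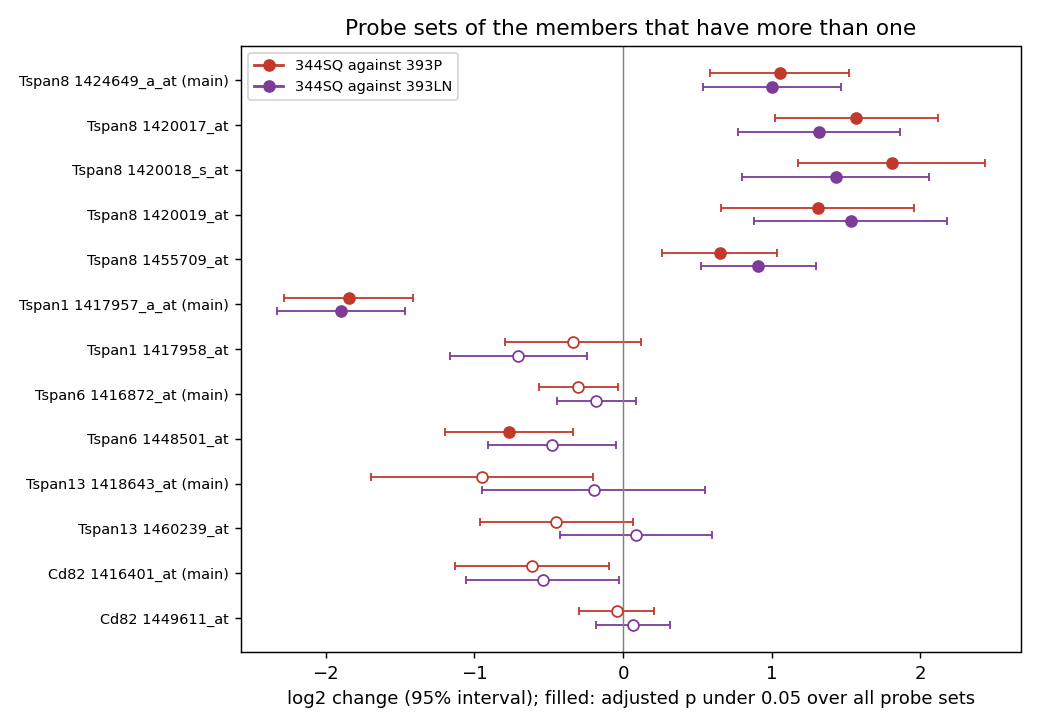
Log2 change in 344SQ against 393P and against 393LN for every probe set of the 5 genes that have more than one, with 95% intervals; filled points passed an adjusted p of 0.05 over all probe sets. All 5 Tspan8 probe sets lie above 0 and are filled, while the second Tspan1 probe set lies nearer to 0 than the first and is open.

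Tspan1, a tetraspanin of secretory and ciliated epithelia, went the other way. On the 344SQ arrays its log2 level was 9.26, 9.54, 9.42 and 8.89. The 393LN arrays had 11.61, 10.93, 11.39 and 10.78, and the 393P arrays 11.03, 10.97, 11.10 and 11.40. The 344SQ values were more than 1 log2 unit below every other array, and the 393 lines overlapped. Tspan1 fell by 1.85 on the log2 scale against 393P (SE 0.20, 3.60-fold; limma, adjusted p = 0.000106), and the change against 393LN was -1.90 ± 0.20 (3.73-fold; limma, adjusted p = 0.000115). Between 393LN and 393P the change was 0.05 ± 0.20 (95% interval -0.37 to 0.48; limma, adjusted p = 0.942).

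The 2 probe sets of Tspan1 did not show the same size of change. The second one had changes of -0.34 ± 0.21 against 393P (limma, adjusted p = 0.424 over all probe sets) and -0.71 ± 0.21 against 393LN (limma, adjusted p = 0.0649). With the mean of both probe sets, Tspan1 had a change of -1.09 against 393P (limma, adjusted p = 0.00169), so the call held and the size was smaller.

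Tspan13 was scattered within lines. Its log2 level was 9.71, 9.42, 10.34 and 8.89 in 344SQ, 10.73, 9.44, 9.43 and 9.54 in 393LN, and 10.04, 10.92, 10.66 and 10.53 in 393P. The lines overlapped in every pair, and replicate 1 of 393LN lay apart from the rest of its line. Its change of -0.95 ± 0.34 in 344SQ against 393P did not pass (95% interval -1.69 to -0.20; limma, adjusted p = 0.107), except without 393LN replicate 1, where the same change had an adjusted p of 0.0481 (limma). Against 393LN the change was -0.20 ± 0.34 (limma, adjusted p = 0.776), and that of 393LN against 393P was -0.75 ± 0.34 (limma, adjusted p = 0.314). Its other probe set had changes of -0.45, 0.09 and -0.53 in the same order.

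Cd9, Cd81 and Cd82 are the widely expressed tetraspanins. Cd9 takes part in cell adhesion and in the fusion of egg and sperm, Cd81 joins the co-receptor of B cells, and Cd82 was first described as a suppressor of metastasis. None of them passed the test in any of the 3 comparisons. Their medians in 344SQ, 393LN and 393P were 12.83, 12.81 and 13.01 for Cd9, 12.92, 13.15 and 13.27 for Cd81, and 11.28, 11.85 and 12.04 for Cd82.

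Cd82 was at 11.20, 11.19, 11.37 and 11.56 on the 344SQ arrays. It was at 12.45, 12.11, 11.33 and 11.60 in 393LN and at 11.45, 12.24, 12.09 and 11.99 in 393P. The lowest array of each 393 line fell inside the 344SQ range, so the groups overlapped. Its change was -0.61 ± 0.24 against 393P (95% interval -1.13 to -0.10; limma, adjusted p = 0.131) and -0.54 ± 0.24 against 393LN (95% interval -1.06 to -0.03; limma, adjusted p = 0.170). The other probe set of Cd82 had changes of -0.04 and 0.07. For Cd81 the changes were -0.27 ± 0.15 and -0.21 ± 0.15 (limma, adjusted p = 0.297 and 0.402).

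Cd9 stood at 12.69, 12.79, 12.87 and 13.05 in 344SQ, at 13.02, 12.99, 12.58 and 12.62 in 393LN, and at 11.79, 13.01, 13.00 and 13.01 in 393P. Apart from the first 393P array, all arrays lay between 12.58 and 13.05. Its changes in 344SQ were 0.15 ± 0.25 against 393P (95% interval -0.39 to 0.69; limma, adjusted p = 0.791) and 0.05 ± 0.25 against 393LN (95% interval -0.49 to 0.59; limma, adjusted p = 0.934). Without 393P replicate 1 the first of these was -0.16. That array was the lowest of its line for 6 of the 9 genes and for 33.4% of all genes. The 3'/5' ratio of the actin control probes, which rises as RNA degrades, was 1.47 there and 1.04 to 1.19 on the other 11 arrays. The part of RNA quality in these values was not tested.

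Tspan6 did not pass with its main probe set. Its log2 level ran from 8.48 to 8.84 in 344SQ, from 8.59 to 8.94 in 393LN and from 8.75 to 9.06 in 393P, so that all lines overlapped. The change was -0.30 ± 0.12 against 393P (limma, adjusted p = 0.141) and -0.18 ± 0.12 against 393LN (limma, adjusted p = 0.380). Its second probe set fell in 344SQ against 393P, with a change of -0.77 ± 0.20 (limma, adjusted p = 0.0345 over all probe sets), and its change against 393LN was -0.48 ± 0.20 (limma, adjusted p = 0.175).

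**Figure D3:**
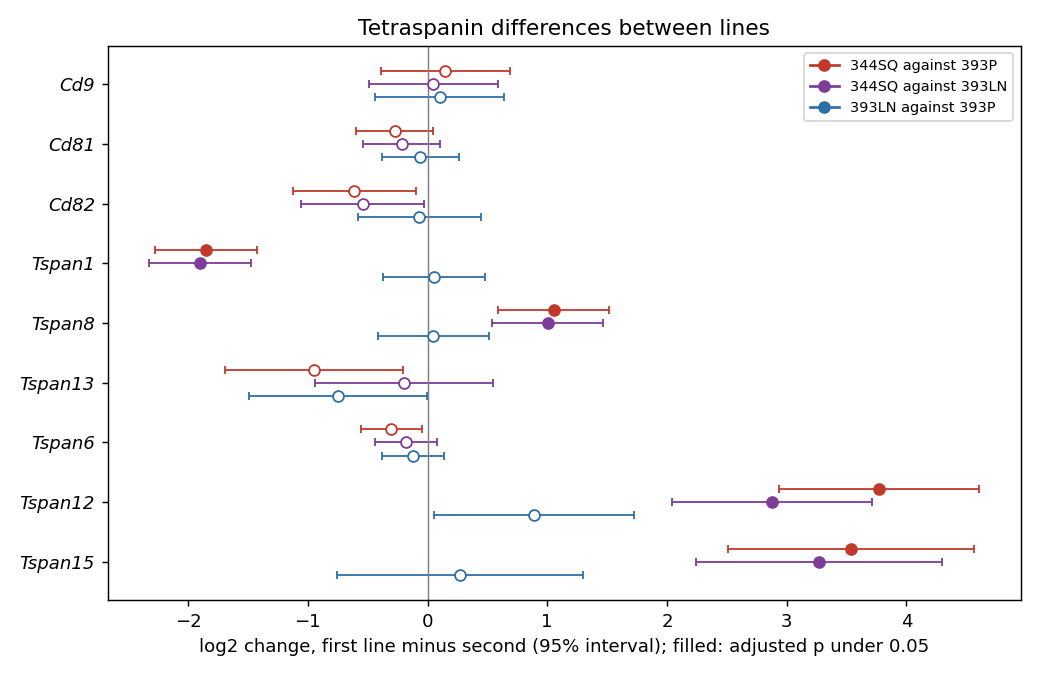
Log2 change of 9 tetraspanin genes in the 3 comparisons of lines, with 95% intervals from the limma fit; filled points passed an adjusted p of 0.05 over all genes. Tspan12 and Tspan15 have the widest displacement above 0 in both 344SQ comparisons, and no point of 393LN against 393P is filled.

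In 344SQ against 393P, 3 of the 9 genes were higher and 1 was lower, beside 4.86% and 5.62% of all genes. Against 393LN the counts were the same, 3 higher and 1 lower, beside 3.99% and 6.92% of all genes. Both comparisons use the same 4 344SQ arrays. In each of them 4 of the 9 genes had groups of arrays that did not overlap, beside 16.7% and 17.4% of all genes. Between 393LN and 393P none of the 9 genes was higher or lower with limma, beside 1.75% and 0.698% of all genes, and none had groups that did not overlap, beside 10.3%. At an unadjusted p under 0.05 there were 2, Tspan12 higher and Tspan13 lower, beside 10% and 5.65% of all genes. The median change of the 9 genes was -0.27 against 393P and -0.18 against 393LN, where all genes had medians of -0.00 and -0.02, and 4 of the 5 genes that did not pass had changes below 0 in both. Since the genes were chosen with these contrasts known, nothing is read from the shares.

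The profiles over the 12 arrays, each centred on its own mean, gave another view of how the genes relate. Tspan12 and Tspan15 lay 0.70 log2 units apart (root mean square over 12 arrays). Cd81 and Tspan6 were the nearest pair at 0.18, with flat profiles, and Tspan1 and Tspan15 the farthest at 2.58. Among all genes tested, those nearest to Tspan12 were Nrn1, Zfhx4 and Pdx1, at distances of 0.39, 0.50 and 0.53, where the median distance of all genes to Tspan12 was 1.71. Nearest to Tspan15 were Ntm, Dnajc22 and Maob at 0.63, 0.64 and 0.65, where the median was 1.76. The nearest to Tspan8 were Pparg, Ahcyl2 and Herpud1 at 0.22, 0.22 and 0.23 (median 0.62), and to Tspan1 Ttc9, Stx3 and Rpia at 0.24, 0.28 and 0.29 (median 0.95). The distances take in both the differences between lines and the scatter within them, and the arrays of one line share their source.

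The rest of the tetraspanin family was followed as a list. Of 20 other measured family members 4 fell and 0 rose in 344SQ against 393P with limma, 2 fell and 0 rose against 393LN, and 0 changed between 393LN and 393P. Among all genes, 4.86% rose and 5.62% fell in the first of these, 3.99% and 6.92% in the second and 1.75% and 0.698% in the third. At an unadjusted p under 0.05 the counts were 3 higher and 4 lower in 344SQ against 393P, 2 higher and 2 lower in 344SQ against 393LN and 1 higher and 3 lower in 393LN against 393P. Of all genes, 11.3% were higher and 12.3% lower at that unadjusted threshold in 344SQ against 393P, 10.6% and 15.1% in 344SQ against 393LN, and 10% and 5.65% in 393LN against 393P. The changes of the 20 against 393P ran from -1.01 to 0.50, with a median of 0.11 where all genes had -0.00. Rom1, a tetraspanin of photoreceptor discs, fell by 1.01 against 393P (SE 0.20; limma, adjusted p = 0.00645), from 8.79 ± 0.31 (SD, n = 4) to 7.78 ± 0.20. Rom1 did not pass against 393LN, with a change of -0.23 (limma, adjusted p = 0.524). Its change in 393LN against 393P was -0.79 (limma, adjusted p = 0.0593).

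Tspan9, Tspan14 and Tspan33, which also fell, are named after their values were seen. Tspan14 and Tspan33 are, like Tspan15, TspanC8 partners of Adam10. The other TspanC8 genes Tspan5, Tspan10 and Tspan17, named outside the rule, passed in no comparison, with changes of 0.18, 0.21 and -0.22 against 393P. Against 393LN Tspan10 changed by 0.32 (limma, adjusted p = 0.0632), with all 344SQ arrays above those of 393LN. Tspan33 was dim, at intensities of 23 to 80, below the median of every array. Against 393P the fall was 0.78 for Tspan14 (SE 0.11; limma, adjusted p = 0.00072), 0.88 for Tspan33 (SE 0.16; limma, adjusted p = 0.00427) and 0.94 for Tspan9 (SE 0.19; limma, adjusted p = 0.00782). The call of Tspan33 ended with the mean of its probe sets or the one of largest variance (adjusted p = 0.181 and 0.136, limma). Tspan9 did not pass against 393LN, with a change of -0.40 (limma, adjusted p = 0.211), and in 393LN against 393P it changed by -0.54 (limma, adjusted p = 0.169). Against 393LN Tspan14 and Tspan33 had changes of -0.41 and -0.69 (limma, adjusted p = 0.0281 and 0.0177), and neither call was stable. For Tspan14 it ended in 7 of 22 settings, 5 of them without 344SQ replicate 1, 2 or 3 or 393LN replicate 2 or 3 (highest adjusted p 0.0762, limma). For Tspan33 it ended without 344SQ replicate 2 or 393LN replicate 3 (adjusted p = 0.055 and 0.0518, limma) and with other choices of probe set (highest adjusted p 0.273, limma).

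Cd151, the tetraspanin most tightly bound to laminin-binding integrins, did not pass, with means of 13.10 ± 0.14 in 344SQ and 12.99 ± 0.05 in 393P (SD, n = 4; limma, adjusted p = 0.571). Cd37 and Cd53 are tetraspanins of leukocytes. Cd53 was at 11.03 ± 0.23 in 344SQ, 11.09 ± 0.33 in 393LN and 11.09 ± 0.47 in 393P, and Cd37 at 6.77 ± 1.09, 6.89 ± 0.44 and 6.33 ± 0.40. Neither passed against 393P (limma, adjusted p = 0.928 and 0.633).

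**Figure D4:**
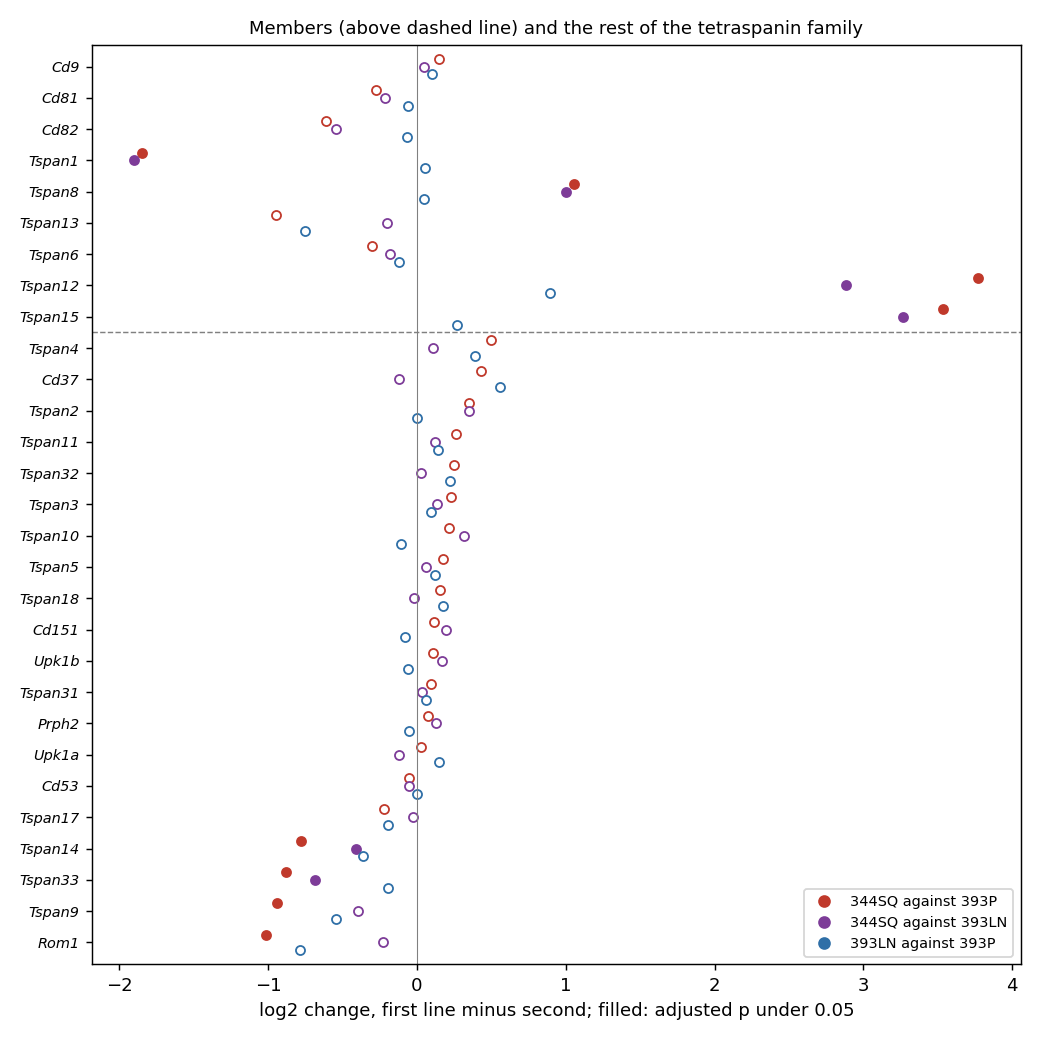
Log2 change of the 9 measured genes (above the dashed line) and of 20 other tetraspanin family genes (below it) in the 3 comparisons of lines; filled points passed an adjusted p of 0.05 over all genes. The changes of the 20 others against 393P stay between -1.01 and 0.50, and Tspan12 and Tspan15 lie beyond 2.8 in both 344SQ comparisons.

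Genes of known partners were followed through lists. Of 14 genes of tetraspanin partners 1 rose and 4 fell in 344SQ against 393P (median change 0.05), and 4 rose and 4 fell against 393LN. In the same comparisons 4.86% of all genes rose and 5.62% fell, and 3.99% rose and 6.92% fell. Epcam and Cldn7, partners of Tspan8, were lower than in 393P (log2 changes -3.82 ± 0.33 and -3.80 ± 0.27; limma, adjusted p = 2.49e-05 and 5.62e-06), while Tspan8 itself was higher. Cd44, of the same complex, had a change of 0.12 ± 0.12 (limma, adjusted p = 0.627), and is named outside the rule for the list. Ptgfrn, an immunoglobulin superfamily partner of Cd9 and Cd81, rose by 0.53 ± 0.11 (limma, adjusted p = 0.00822), and the integrin gene Itga3 fell by 0.52 (SE 0.12; limma, adjusted p = 0.016). The call of Ptgfrn ended with the mean of its probe sets (adjusted p = 0.110, limma), and that of Itga3 with the mean of its probe sets, the probe set of largest variance or 393P replicate 3 left out (adjusted p = 0.138, 0.610 and 0.0525, limma). Ptgfrn did not pass against 393LN (0.29; limma, adjusted p = 0.113). The 4 that rose against 393LN were Itga6, Hbegf, Mmp14 and Icam1, and the 4 that fell were Itga3, Itgb4, Epcam and Cldn7. The integrin gene Itga6, named outside the rule, rose there by 0.47 (limma, adjusted p = 0.019). Its change against 393P was 0.36 (limma, adjusted p = 0.0585), with all 344SQ arrays above those of 393P.

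Around Tspan15, 3 of 13 genes for Adam10, Adam17 and their substrates rose in 344SQ against 393P and 2 fell (median 0.09). In that comparison 4.86% of all genes rose and 5.62% fell. Against 393LN 2 of the 13 rose and 2 fell, beside 3.99% and 6.92% of all genes. Adam10 itself, named outside the rule as the partner, was at 12.48 ± 0.24 in 344SQ and 12.19 ± 0.13 in 393P (SD, n = 4; log2 change 0.29 ± 0.15; limma, adjusted p = 0.265). The N-cadherin gene Cdh2, whose product Adam10 cuts, rose by 3.62 ± 0.37 against 393P and by 3.27 ± 0.37 against 393LN (limma, adjusted p = 8.06e-05 and 0.000234). Against 393P Notch2 rose by 0.62, Notch3 fell by 0.66 and the chemokine gene Cxcl16 fell by 1.38 (limma, adjusted p = 0.00892, 0.00716 and 0.00366). Their changes against 393LN were 0.53, -0.23 and -1.43 (limma, adjusted p = 0.0216, 0.300 and 0.00328), so Notch3 did not pass there. All 393LN arrays lay below those of 393P for Notch3 (change -0.43; limma, adjusted p = 0.112).

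Around Tspan12, none of 11 genes of Norrin and Frizzled-4 signalling passed in any of the 3 comparisons with limma, and 1, 1 and 0 passed at an unadjusted p under 0.05. The shares of all genes at both thresholds are those given with the other tetraspanins. The receptor and ligand genes are named outside the rule. Fzd4 was at 8.58 ± 0.07 in 344SQ and 8.60 ± 0.09 in 393P (SD, n = 4), Lrp5 at 8.60 ± 0.22 and 8.70 ± 0.37, and Ndp, which encodes Norrin, at 7.09 ± 0.24 and 6.96 ± 0.34. Their adjusted p against 393P were 0.960, 0.900 and 0.759 (limma).

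Of 17 genes of exosome formation and the late endosome 3 rose and 0 fell against 393P (median -0.02). Among all genes 4.86% rose and 5.62% fell in that comparison. The vesicle fusion gene Vamp7 rose by 0.85 ± 0.12 (limma, adjusted p = 0.00101), Rab27b, which brings secretory vesicles to the membrane, by 0.59 ± 0.13 (limma, adjusted p = 0.0128), and Vps4a, of the machinery that buds vesicles, by 0.53 ± 0.14 (limma, adjusted p = 0.0316). The Vps4a call ended in 6 settings, without 344SQ replicate 3 or 4, without 393P replicate 1, 3 or 4, or with only the 2 lines in the fit (highest adjusted p 0.0748, limma). Against 393LN Rab27b rose by 1.07 ± 0.13 (limma, adjusted p = 0.000393), and Vps4b, named outside the rule, fell by 0.43 (limma, adjusted p = 0.0477). Vamp7 and Vps4a did not pass against 393LN, with changes of -0.09 and -0.22 (limma, adjusted p = 0.724 and 0.366). Both were also higher in 393LN than in 393P, by 0.94 and 0.75 (limma, adjusted p = 0.00422 and 0.0192).

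Other cells in the tumours could carry these genes. For mast cells, the summed intensity of 9 markers was 11386 to 16032 on the 344SQ arrays, 1418 to 1997 on those of 393LN and 2553 to 5940 on those of 393P. Most of the sum in 344SQ came from Mcpt1 and Mcpt2, with mean intensities of 4217 and 8368. The mean log2 level of the 9 was 8.03 to 9.12 in 344SQ, 7.14 to 7.53 in 393LN and 7.80 to 8.39 in 393P. On that scale 344SQ and 393P overlapped. Of these 9 markers 2 rose in 344SQ in each comparison, Mcpt1 and Mcpt2, named after their values were seen, and 0 fell. Among all genes 4.86% rose and 5.62% fell against 393P, and 3.99% rose and 6.92% fell against 393LN. In 393LN against 393P the same 2 markers fell, where no tetraspanin among the 9 passed. The sum of 10 epithelial markers was 66761 to 73697 in 344SQ, 80671 to 98188 in 393LN and 80782 to 106760 in 393P, with 5 that fell in each 344SQ comparison and 0 that rose. The mean log2 level of those 10 was 10.47 to 10.72 in 344SQ, 12.54 to 12.97 in 393LN and 12.54 to 13.11 in 393P. The 5 that fell were Esrp1, Rab25, Cldn4, Epcam and Elf3, with changes against 393P of -7.06, -5.71, -4.73, -3.82 and -1.49. The E-cadherin gene Cdh1 and the keratin genes Krt7, Krt8, Krt18 and Krt19 did not pass in either comparison, with changes between -0.36 and 0.18. The Elf3 call against 393LN ended without 344SQ replicate 1, 2 or 3 or 393LN replicate 1, 2 or 3 (highest adjusted p 0.0735, limma). Sums of 10 macrophage markers (16682 to 32014, 25020 to 41021 and 28480 to 45438) and of 10 fibroblast markers (53185 to 67043, 39872 to 58292 and 41240 to 55681) overlapped between lines, as did those of neutrophil, T and NK cell, B cell, endothelial and muscle or fat markers. Single markers of these lists still moved with 344SQ. Of the 10 macrophage markers 2 fell in both 344SQ comparisons, Aif1 (-1.26 and -1.03) and Tyrobp (-0.92 and -0.59). At an unadjusted p under 0.05 there were 7 lower and 1 higher against 393P, and 5 lower and 0 higher against 393LN. Mrc1 was the higher one, at a mean log2 level of 11.46 in 344SQ and 10.78 in 393P. Of all genes at that threshold, 12.3% were lower and 11.3% higher against 393P, and 15.1% and 10.6% against 393LN. The Tyrobp call against 393LN ended in 13 of 22 settings, 9 of them with an array left out: 344SQ replicate 2, 3 or 4, 393LN replicate 1, 2 or 4, or 393P replicate 2, 3 or 4 (highest adjusted p 0.116, limma). Of the 8 neutrophil markers Il1b and Padi4 fell against 393P (-1.34 and -3.36), and Padi4 also against 393LN (-3.36), a call that ended with only the 2 lines in the fit (adjusted p = 0.0502, limma). The T cell marker Cd2 rose against 393P (0.94; limma, adjusted p = 0.0162). Cd2 was dim, below the median of every array, with mean intensities of 56 for 344SQ and 23 for 393P. The 7 T and NK cell markers had a median change of -0.07 against 393P. Among them Gzma went the other way without passing, by -1.88 against 393P and -2.56 against 393LN (limma, adjusted p = 0.151 and 0.0504). No fibroblast, endothelial, B cell, muscle or fat marker passed in a 344SQ comparison with limma. At an unadjusted p under 0.05, 4 of the 10 fibroblast markers were higher in each 344SQ comparison and 0 of the others. No marker was at the floor intensity of 1 on any array, but Esrp1 in 344SQ was near it, with a mean intensity of 6.03. The size of its change against 393P ran from -8.80 to -5.41 over the 22 other settings. The part of these cells in the tetraspanin differences was not tested.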

How the data were processed

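Total RNA of 12 tumour samples, labelled with biotin per the labels' protocols, was measured on 1-colour Affymetrix arrays. The deposited values are probe set intensities on a linear scale, from 1 to 21921, and the sources used here do not name the software behind them. The labels' design text names the 430A 2.0 chip, but the deposited table has 45101 probe sets and its annotation is that of a larger array, a mismatch that the sources used here do not settle. All were read, and 34945 with 1 gene symbol in the platform annotation were used. No scaling was added before taking log2(intensity + 16), as the medians of the arrays (log2, nothing added) spanned only 7.19 to 7.29. A fold change is on that scale and understates changes of dim genes. Of 18193 genes, each was represented by the probe set with the highest mean. A linear model estimating each line's mean from all 12 arrays was run in limma 3.58.1 (R 4.3.3), and p-values, two-sided, were adjusted over all genes by the Benjamini-Hochberg method. A gene rose or fell at an adjusted p under 0.05. A gene's single probe sets were fitted over all 34945. The number of arrays limits the precision.

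The labels give no replicate numbers, so these follow accession order. The scripts were tested on simulated data. Members, lists and motifs were chosen with earlier results of these data known. Named genes were the members; other tetraspanins with an adjusted p under 0.05 and at least a 2-fold change, and Cd37, Cd53 and Cd151; in each pathway list up to 4 called genes of smallest p against 393P, plus at most 2 of the rarer direction; and the 3 genes nearest to each member whose line means differ by at least 1. Alternatives were 10 other settings and leaving out each of 12 arrays.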

Additional observations from a re-analysis of the deposited data

Results flagged for a closer look

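Of 27 groups of 4 arrays (9 genes in 3 lines), 2 held an array far from the other three by Dixon's criterion; chance gives about 1 in 20 groups. Cd9 was at 11.79 on 393P replicate 1, against 13.00 to 13.01 on the other 393P arrays. Tspan13 was at 10.73 on 393LN replicate 1, against 9.43 to 9.54 on the other 393LN arrays.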

How the results depend on the processing

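Of 594 values of the 9 genes under 22 other settings (27 changes each), 571 kept their direction and their side of the threshold, 0 lost a call, 3 gained one and 20 changed sign, all of these in changes that had not passed. The calls of Tspan12, Tspan15, Tspan8 and Tspan1 in both 344SQ comparisons held under all 22. The number of genes lower in 344SQ than in 393P was 2 in place of 1 with the mean of all probe sets or the probe set with the largest variance, where Tspan6 also fell (adjusted p = 0.0438 and 0.0340, limma), and 1 to 2 with an array left out. With a pseudocount of 1 the probe set of each gene was chosen again, and for Tspan13 the other probe set was taken. The change of Tspan13 against 393LN was then 0.087. As reported, the means of its 2 probe sets were 9.9721 and 9.9715. With the mean of all probe sets the change of Cd53 against 393P was 0.069. The change of Krt8 against 393P was 0.024 with quantile normalization and 0.011 with arrays centred on their medians. With arrays left out, the count of all genes called was 1259 to 1932 against 393P (lowest without 393P replicate 3) and 1167 to 2481 against 393LN (lowest without 344SQ replicate 2). Between 393LN and 393P it was 156 to 438, more than 1.5 times below the reported count without 393LN replicate 2 or 3 or 393P replicate 2, 3 or 4, and 174 with only the 2 lines compared. The changes that reversed with an array left out spanned, against 393P, -0.16 to 0.25 for Cd9, -0.088 to 0.74 for Cd37, -0.25 to 0.11 for Cd53, -0.065 to 0.0071 for Fzd4 and -0.072 to 0.028 for Krt8. Against 393LN they spanned -0.027 to 0.12 for Cd9, -0.45 to 0.12 for Tspan13 and -0.0025 to 0.067 for Krt18. Between 393LN and 393P they spanned -0.20 to 0.21 for Cd9, -0.18 to 0.032 for Cd81, -0.26 to 0.11 for Cd82, -0.091 to 0.18 for Tspan1, -0.095 to 0.22 for Tspan8 and -0.17 to 0.57 for Tspan15. Apart from the Tspan13 value with a pseudocount of 1, the cause was not tested. All 9 genes stayed in when the dimmest 25% or 50% of genes were left out. No paired analysis was possible because the labels name no batch, animal or pairing of arrays.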
